A study of Sus scrofa with 6 samples.

Results

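SOX9, the transcription factor that directs cartilage formation, and 4 genes of the cartilage matrix, CHAD, HAPLN1, CNMD and COL2A1, were followed across 6 arrays of porcine mesenchymal stem cells, which are stromal cells of the marrow that grow attached to plastic. The members were fixed by gene symbol. Each of the 5 had exactly 1 probe set carrying its symbol alone, among 11078 named genes and 27558 probe sets on the array. The cultures were primary and unsorted, at passage 0, from female American Yorkshire pigs aged 4 months. In 3 the marrow was aspirated from the mandibular symphysis, at the chin, and in the other 3 from the tibia. All were grown to the same confluence in alpha-MEM with 20% FBS, with no cartilage-inducing treatment named in the labels. Per the design text, 3 pigs gave marrow from jaw and tibia, and which pig a sample number stands for is not labelled, so arrays of the 2 sites may share an animal and the unpaired tests do not take this into account.

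In developing cartilage SOX9 works together with SOX5 and SOX6 and activates the genes of the matrix. COL2A1 encodes the chain of type II collagen, the main fibril of hyaline cartilage. HAPLN1 encodes link protein, which locks the proteoglycan aggrecan onto hyaluronan. CHAD encodes chondroadherin, a leucine-rich repeat protein to which chondrocytes attach, and CNMD encodes chondromodulin, a membrane glycoprotein whose shed part keeps vessels out of cartilage. Marrow stromal cells can form cartilage when induced, and SOX9 is also made by stromal and osteochondral progenitors outside cartilage.

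The values are log2 levels after robust multi-array averaging (RMA), which makes the distributions of the arrays alike, so a level is relative to the rest of its own array. Array medians lay between 5.63 and 5.71 and lower quartiles between 3.86 and 3.94. Levels of different genes come from different probes, so percentiles and mean levels serve only to show where a signal lies on its array and to choose the genes named. The files hold no measure of detection, so a low level may be background alone, and precision is limited by having 3 arrays a site. The cultures also hold several cell types, and fewer cells of a type and less RNA per cell cannot be told apart. On 2 arrays the positional genes went against the label. HOXA7, a gene of trunk and limb identity, measured 5.26, 8.40 and 5.23 on mandibular 1, 2 and 3, against 8.01, 7.92 and 5.89 on tibial 1, 2 and 3. ALX1, a craniofacial homeobox gene, measured 8.08, 3.86 and 7.44 on the mandibular arrays, against 3.90, 3.54 and 7.97 on the tibial arrays. The library labelled mandibular 2 thus lay with tibial 1 and 2 for these genes, and the library labelled tibial 3 with mandibular 1 and 3. The differences of the 5 genes and the list medians are therefore also given without these 2 libraries, a choice made with the positional genes known. That fit compares 2 arrays with 2. Leaving out arrays that lie with the other site can by itself widen differences between sites and narrow the spread within them.

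None of the 5 genes passed the test between sites, in which 0% of all 27558 probe sets were called. The test was limma's moderated test, with p-values adjusted by Benjamini-Hochberg across the whole array, and each member had an adjusted p of 0.9995. In limma 836 probe sets, 3.03% of all, had an unadjusted p below 0.05, as had 848 without variance moderation, which also gave 0 calls. CHAD and HAPLN1 were among the 836. The sites' values did not overlap for 6.92% of all probe sets, 3.35% with mandibular higher and 3.57% with mandibular lower. Among the members this was the case for CHAD, on the higher side, and COL2A1, on the lower side. The 4 matrix genes had been picked with their values in this contrast known, so their separation is a description and no independent evidence of a difference.

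SOX9 was well within the upper range of every array and varied between cultures without following the site label. It measured 8.79, 8.95 and 8.20 on mandibular 1, 2 and 3, against 7.84, 9.09 and 8.11 on tibial 1, 2 and 3. The highest and the lowest level were both tibial, and the mandibular values lay between them. Its place in each array ran from percentile 79.4 of all probe sets on tibial 1 to percentile 90.7 on tibial 2. Mean levels were 8.65 ± 0.40 in mandibular and 8.35 ± 0.66 in tibial cultures (SD, n = 3 each), a difference of 0.30 (SE 0.36), with a 95% interval from -0.56 to 1.16. In the exact permutation test, two-sided, p was 0.6, where 3 arrays against 3 cannot give less than 0.1. The interval leaves room for a difference of over 1 log2 unit in favour of mandibular cultures. The estimate was 0.05 without tibial 1, 0.68 without tibial 2 and 0.18 without tibial 3. Without mandibular 2 it was 0.15, without mandibular 3 it was 0.52, and without mandibular 2 and tibial 3 together it was 0.03, so its size rested on which culture was counted. Ordered from high to low, tibial 2, mandibular 2 and mandibular 1 came first, followed after a gap of 0.59 by mandibular 3, tibial 3 and tibial 1.

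CHAD had the largest difference of the 5 genes. It measured 8.76, 8.67 and 8.55 on mandibular 1, 2 and 3, against 6.52, 7.49 and 8.27 on tibial 1, 2 and 3. All 3 mandibular levels lay above all 3 tibial levels, with 0.28 between the lowest mandibular culture and tibial 3. The mandibular cultures were nearly alike, at 8.66 ± 0.10, while the tibial cultures were spread widely, at 7.43 ± 0.87 (SD, n = 3 each). The difference was 1.23 (SE 0.41), or 2.35-fold, with a 95% interval from 0.26 to 2.20 that is not adjusted for the number of probe sets. It ranked 272nd of 27558 by unadjusted p, which was 0.0200 in limma (adjusted p = 0.9995), and 222 probe sets had a larger difference in either direction. The exact permutation p was 0.1, the smallest possible. Without tibial 1 the difference was 0.78 (SE 0.25). Without tibial 3 it was 1.65 (SE 0.29), and without mandibular 2 and tibial 3 together it was also 1.65 (SE 0.34). In these last 2 fits limma's adjusted p was 0.1464 and 0.1465.

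HAPLN1 was arranged much as CHAD, at a low level. It measured 4.96, 4.79 and 4.63 on mandibular 1, 2 and 3, against 3.73, 3.56 and 4.68 on tibial 1, 2 and 3. Only tibial 3 reached the mandibular levels, lying above mandibular 3, and a gap of 0.89 separated the lowest mandibular culture from tibial 1 and 2. On those 2 arrays HAPLN1 stood at percentiles 22.4 and 21.3, below the lower quartile, where a level may be background alone, and on the other 4 arrays between percentiles 35.6 and 39.6. Mean levels were 4.79 ± 0.17 in mandibular and 3.99 ± 0.60 in tibial cultures (SD, n = 3 each). The difference was 0.80 (SE 0.30), or 1.75-fold, with a 95% interval from 0.10 to 1.51, and the exact permutation p was 0.2. Where the levels on tibial 1 and 2 are background alone, this fold and its interval may understate the difference. Without tibial 3 it was 1.15 (SE 0.16), with an adjusted p of 0.108 in limma. Without tibial 2 it was 0.59 (SE 0.30), and without mandibular 2 and tibial 3 together 1.15 (SE 0.20).

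CNMD and COL2A1 had lower mean levels in the cultures labelled mandibular, by small amounts. CNMD measured 3.08, 2.86 and 3.15 on mandibular 1, 2 and 3, against 3.68, 3.47 and 3.05 on tibial 1, 2 and 3. It lay below the lower quartile of every array, between percentiles 12.9 and 21.8, so all of its levels may be background. The 2 highest cultures were tibial 1 and 2, and tibial 3 lay among the mandibular cultures. Its difference was -0.37 (SE 0.19), with a 95% interval from -0.82 to 0.07 and an exact permutation p of 0.3. It was -0.23 without tibial 1, -0.55 without tibial 3 and -0.46 without mandibular 2 and tibial 3 together.

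COL2A1 measured 6.58, 6.56 and 6.49 on mandibular 1, 2 and 3, against 6.94, 6.72 and 6.62 on tibial 1, 2 and 3. The sites did not overlap, but the lowest tibial and the highest mandibular culture were only 0.05 apart. Mean levels were 6.54 ± 0.05 in mandibular and 6.76 ± 0.16 in tibial cultures (SD, n = 3 each), a difference of -0.22 (SE 0.12), or 1.16-fold. The 95% interval ran from -0.52 to 0.08. Its exact permutation p was 0.1, the smallest possible. Over the 6 arrays COL2A1 ranged by 0.45, less than the median range of all probe sets, 0.53, and 60.5% of probe sets ranged at least as widely. Without tibial 1 its difference was -0.13, without tibial 3 it was -0.29, and without mandibular 2 and tibial 3 together it was -0.30.

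**Figure D1:**
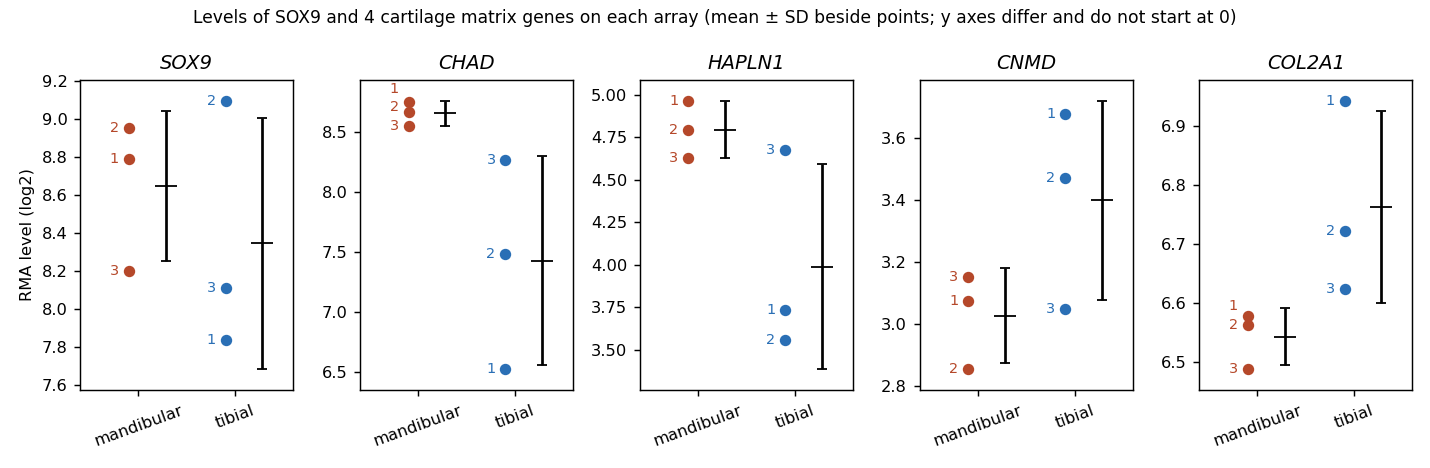
RMA level on the log2 scale (y axes differ) of SOX9, CHAD, HAPLN1, CNMD and COL2A1 on each array, mandibular at left and tibial at right, with the sample number beside each point and the mean ± SD (n = 3) as a bar. The mandibular values of CHAD lie between 8.55 and 8.76 while its tibial values run from 6.52 to 8.27, and for SOX9 the tibial values enclose the mandibular ones.

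The cultures differed from each other mainly on the tibial side. The range over tibial arrays was wider than that over mandibular arrays for 5 of 5 members, and for 58.4% of all probe sets. For CHAD the tibial range was 1.74 and the mandibular 0.20, a ratio that 1.85% of probe sets reached. For HAPLN1 the ranges were 1.12 in tibial and 0.34 in mandibular cultures, and for SOX9 1.26 and 0.75. Over all 6 arrays CHAD ranged by 2.23, HAPLN1 by 1.40, SOX9 by 1.26 and CNMD by 0.82. Ranges at least as wide were found for 2.77%, 8.30%, 10.5% and 23.4% of probe sets.

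The 4 matrix genes did not move as a set. Tibial 1 and 2 were the lowest arrays for CHAD and HAPLN1, an arrangement found for 9.72% of all probe sets, and the highest for CNMD and COL2A1, found for 7.86%. SOX9 had its lowest level on tibial 1 and its highest on tibial 2. The likeness of 2 profiles was described by Pearson's r over the 6 arrays, without a test, since arrays may share a pig. It was 0.89 for CHAD with HAPLN1, and -0.96 for CHAD with COL2A1. For SOX9 it was 0.41 with CHAD, 0.07 with HAPLN1, -0.35 with CNMD and -0.37 with COL2A1. The 4 matrix genes had been picked by their small p-values between the sites. High r values among them, of either sign, follow in part from that choice.

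The same tibial arrays stood apart in markers of macrophages and of cell division. The mean of 14 macrophage and monocyte genes ranged from 4.93 to 6.36 over mandibular and from 5.49 to 8.76 over tibial arrays, and was 8.76 and 8.24 on tibial 1 and 2. All 14 had lower mandibular means, with a median difference of -2.21, which was -1.48 without tibial 1 and -3.31 without tibial 3, and 0 were called. The sites did not overlap for CD14 and ITGAM alone of the 14, as for 3.57% of all probe sets with mandibular lower. Without mandibular 2 and tibial 3 together the median was -3.76 and 12 of the 14 were called in limma, all lower, where 0.708% of all probe sets were called. The complement genes C1QA and C1QB, made by macrophages, differed by -2.10 (SE 0.95) and -3.00 (SE 1.22). PTPRC, the pan-leukocyte antigen CD45, measured 3.42, 4.86 and 3.71 on mandibular arrays, against 7.66, 6.96 and 3.91 on tibial arrays. The mean of 8 cell cycle genes ranged from 7.65 to 8.58 over mandibular and from 6.13 to 8.16 over tibial arrays, with its lowest values, 6.13 and 6.73, on tibial 1 and 2. ANLN and MYBL2, genes of cytokinesis and of proliferation, differed by 1.06 (SE 0.51) and 1.08 (SE 0.50), and 0 of the 8 were called. Their median difference was 1.01, and it was 0.54 without tibial 1, 1.62 without tibial 3 and 1.74 without mandibular 2 and tibial 3 together, with 0 called in this last fit too. The library labelled tibial 3, which had CHAD and HAPLN1 close to the mandibular levels, had a macrophage mean of 5.49 and a cell cycle mean of 8.16. Mandibular 2 had a macrophage mean of 6.36, above tibial 3, and a CHAD level of 8.67, above tibial 3 too. Over the 6 arrays, Pearson's r with the macrophage mean was -0.90 for CHAD, -0.92 for HAPLN1, 0.80 for CNMD and 0.88 for COL2A1. With the cell cycle mean it was 0.86, 0.80, -0.80 and -0.92 in the same order. For SOX9 the values were -0.03 and 0.0004. CHAD, HAPLN1, CNMD and COL2A1, unlike SOX9, had been picked by their small p-values between the sites. Both list means also set tibial 1 and 2 apart, so high r values follow in part from that choice. They are a description and no independent evidence of a link. The part of either cell composition or cell division in the CHAD, HAPLN1, CNMD and COL2A1 values was not tested. SOX9 was high on tibial 2, where the macrophage mean was 8.24, and low on tibial 1, where it was 8.76.

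**Figure D2:**
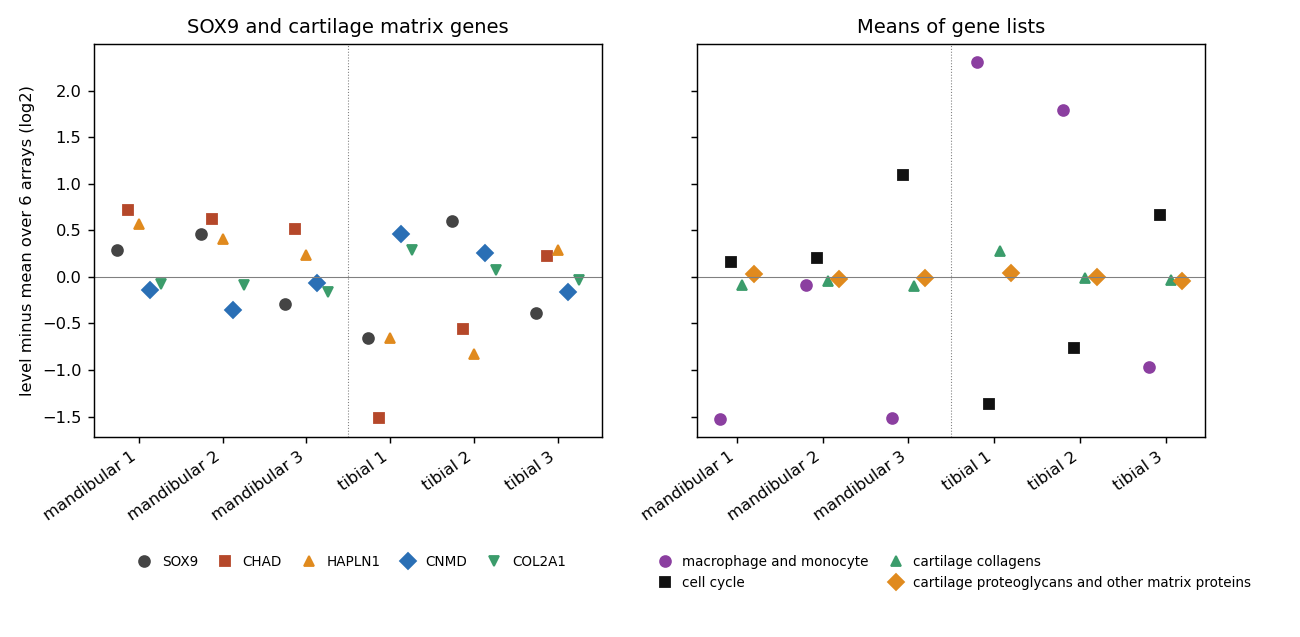
Level on each array minus the mean over the 6 arrays, on the log2 scale, for the 5 genes at left and for the means of 4 gene lists at right. CHAD and HAPLN1 are lowest on tibial 1 and 2, where the macrophage and monocyte mean is highest, at 8.76 and 8.24, and the cell cycle mean lowest, at 6.13 and 6.73.

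Genes of other cell types had no call either with all arrays. Of the tendon and fibrocartilage list 3 of 6 measured genes were higher and 3 lower in mandibular cultures, with a median of -0.04. TNMD, the tendon homologue of CNMD, measured 2.76 in mandibular and 2.87 in tibial cultures, near the bottom of the arrays. TNC, an adhesion-modulating matrix protein of tendon and perichondrium, differed by 0.42 (SE 0.42), and the immediate early gene EGR1 by 0.11 (SE 0.15). The stromal genes named by their mean level were the collagen genes COL1A1 and COL1A2. COL1A1 measured 13.36 in mandibular and 13.42 in tibial cultures, and COL1A2 measured 13.27 in mandibular and 13.40 in tibial cultures. The other stromal genes did not all share this even level: VCAM1, an adhesion molecule gene chosen here after its values were seen, measured 4.28, 5.57 and 3.68 on mandibular arrays, against 9.52, 7.55 and 4.10 on tibial arrays. Of 10 stromal genes 3 were higher and 7 lower, with a median of -0.08. In the osteoblast list, 4 of 8 genes were higher, with a median of -0.07. SP7, the osteoblast transcription factor, differed by 0.02 (SE 0.47) and SPP1 by -0.17 (SE 0.77). Adipocyte genes were higher in 2 of 7, with a median of -0.17, CEBPA at -0.64 (SE 0.31) and LPL at -1.93 (SE 1.96).

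Osteoclast genes, expressed by cells that also belong to the myeloid line, were lower in 8 of 10 with a median of -0.43. MMP9 differed by -2.88 (SE 1.26), while CTSK, the collagen-degrading protease of osteoclasts that stromal cells also make, differed by 0.02 (SE 0.31). Endothelial genes had a median of -0.25, with 2 of 6 higher, PECAM1 at -0.55 (SE 0.16) and EGFL7 at -0.26 (SE 0.20). Of 5 smooth muscle and pericyte genes 3 were higher, with a median of 0.04, ACTA2 at 0.04 (SE 0.18) and TAGLN at -0.06 (SE 0.16). Schwann cell and melanocyte genes were higher in 1 of 4, with a median of -0.10, SOX10 at -0.04 (SE 0.13) and MITF at -0.33 (SE 0.35). Over all probe sets 51.0% were higher in mandibular cultures and the median difference was 0.0041. No gene of these lists was called in limma with all arrays. The sites did not overlap for PECAM1 and PHEX, with mandibular lower, and for KDR, with mandibular higher. Among all probe sets the shares were 3.57% and 3.35%. KDR and PHEX lay below the lower quartile of every array.

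The medians of these lists depended on single cultures. In single omissions the osteoclast median ran from -0.63 without tibial 3 to -0.21 without tibial 1, and the endothelial median from -0.39 without tibial 3 to -0.08 without tibial 1. The adipocyte median ran from -0.31 without tibial 2 to 0.01 without tibial 1, and the Schwann cell and melanocyte median from -0.17 without tibial 2 to 0.02 without tibial 1. The tendon median ran from -0.10 without mandibular 1 to 0.04 without tibial 2, and the smooth muscle median from -0.09 without mandibular 2 to 0.04 without mandibular 1. The stromal median ran from -0.13 without tibial 3 to -0.03 without tibial 2, and the osteoblast median from -0.13 without tibial 3 to -0.01 without mandibular 3. Without mandibular 2 and tibial 3 together the medians were -0.69 for osteoclast, -0.35 for endothelial, -0.30 for adipocyte and -0.19 for Schwann cell and melanocyte genes. They were 0.07 for tendon, -0.19 for smooth muscle and pericyte, -0.13 for stromal and -0.01 for osteoblast genes. In that fit 0.708% of all probe sets were called. They included the osteoclast genes ACP5, MMP9 and ATP6V0D2 and the adipocyte genes PPARG and LPL, these 5 all lower in mandibular cultures. The other adipocyte genes were not called, CEBPA at -1.02, PLIN4 at -0.30, CIDEC at -0.15, LEP at 0.05 and PLIN1 at 0.14. Of the other 6 lists 0 genes were called.

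The other matrix genes of cartilage gave no common direction. Of 8 measured cartilage collagens, 2 were higher and 6 lower in mandibular cultures, with a median of -0.11 and 0 called. COL11A1, a chain of the collagen that nucleates type II fibrils, measured 7.03, 8.06 and 7.22 on mandibular arrays, against 7.43, 9.05 and 7.46 on tibial arrays. Tibial 2 had the highest level of both COL11A1 and SOX9, but COL11A1 was lowest on mandibular 1 and SOX9 on tibial 1. The COL11A1 difference was -0.54 (SE 0.49). COL9A1, a chain of the collagen on the surface of those fibrils, measured 3.25 in mandibular and 3.33 in tibial cultures, below the lower quartiles. COL10A1, the collagen of hypertrophic cartilage, measured 4.15 in mandibular and 4.10 in tibial cultures. The other 3 genes named by their mean level are collagens also found outside cartilage, COL6A3 at -0.35 (SE 0.38), COL12A1 at -0.57 (SE 0.29) and COL14A1 at 0.49 (SE 0.62). The median of the list was -0.01 without tibial 1, -0.18 without tibial 2 and -0.11 without mandibular 2 and tibial 3 together, with 0 called in this last fit.

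Of 16 cartilage proteoglycans and other matrix proteins, 10 were higher and 6 lower, with a median of 0.03 and 0 called. ACAN, which encodes aggrecan, the proteoglycan that HAPLN1 anchors, measured 6.07, 5.21 and 5.22 on mandibular arrays, against 4.97, 5.57 and 5.25 on tibial arrays. Mandibular 1 had the highest level of both ACAN and HAPLN1, but ACAN was next highest on tibial 2, where HAPLN1 was lowest. The ACAN difference was 0.24 (SE 0.28). MATN3, a matrilin that bridges collagen fibrils, differed by 0.28 (SE 0.38). COMP, a pentameric glycoprotein of cartilage and tendon, differed by -0.33 (SE 0.44) and had its highest levels, 7.49 and 7.34, on tibial 2 and mandibular 2. The 4 genes with the highest mean levels were the small proteoglycans BGN, at -0.08 (SE 0.15), and FMOD, at 0.10 (SE 0.19), and the matricellular genes CTGF, at 0.48 (SE 0.28), and CYR61, at 0.16 (SE 0.11). CYR61 alone of the 16 had sites that did not overlap, with mandibular higher, as had 3.35% of all probe sets. The median turned to -0.04 without mandibular 1 and was 0.11 without tibial 3. Without mandibular 2 and tibial 3 together it was 0.12, with 0 called.

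Of 9 hyaluronan and link protein genes, 3 were higher and 6 lower, with a median of -0.11 and 0 called. VCAN, a hyaluronan-binding proteoglycan of loose tissue, measured 9.93, 11.17 and 9.97 on mandibular arrays, against 11.37, 11.30 and 9.27 on tibial arrays. Its high arrays, mandibular 2, tibial 1 and tibial 2, were those with high HOXA7, so it was not arranged as HAPLN1, and its difference was -0.29 (SE 0.63). CD44, the hyaluronan receptor, differed by 0.52 (SE 0.44). CEMIP, a hyaluronan-depolymerising protein, differed by -0.30 (SE 0.58). The hyaluronidase gene HYAL2 measured 7.09 in mandibular and 7.10 in tibial cultures. HAPLN3, another link protein gene, differed by 0.30 (SE 0.31). The median of the list was 0.07 without tibial 1, 0.02 without tibial 2 and -0.09 without mandibular 2 and tibial 3 together. In this last fit, where 0.708% of all probe sets were called, VCAN alone of the 9 was called, at -1.39 (SE 0.16, adjusted p = 0.0372 in limma).

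SOX5 and SOX6, the partners of SOX9, ranged by 1.01 and 0.85 over the 6 arrays, less than SOX9 at 1.26. They lay at lower levels and were measured by other probes, so these ranges are not strictly comparable. SOX5 measured 5.05, 6.07 and 5.44 on mandibular arrays, against 5.76, 5.62 and 5.21 on tibial arrays, a difference of -0.01 (SE 0.28). SOX6 measured 4.69, 4.69 and 4.29 on mandibular arrays, against 4.11, 4.96 and 4.52 on tibial arrays, a difference of 0.03 (SE 0.24). The highest and the lowest SOX6 array, tibial 2 and tibial 1, were those of SOX9. Of the 13 measured SOX family and chondrogenic transcription factors, 5 were higher and 8 lower, with a median of -0.04 and 0 called. ARID5B, a chromatin regulator that acts with SOX9, differed by -0.09 (SE 0.20), CREB5, a factor of superficial cartilage, by -0.11 (SE 0.19), SOX4 by -0.14 (SE 0.32) and MEF2C, a factor of hypertrophy, by 0.06 (SE 0.28). The median of the list was 0.03 without tibial 2, -0.10 without tibial 3 and -0.07 without mandibular 2 and tibial 3 together, with 0 called in this last fit.

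Signals that drive or restrain cartilage formation were higher in 13 of 22 and lower in 9, with a median of 0.04 and 0 called. Those with the highest mean levels were the receptor genes BMPR2, at 0.09 (SE 0.20), TGFBR1, at 0.27 (SE 0.20), and TGFBR2, at 0.04 (SE 0.17), and the BMP antagonist gene GREM1, at 0.59 (SE 0.60). NOG, a BMP antagonist chosen here after its values were seen, measured 9.07, 7.81 and 8.83 on mandibular arrays, against 6.77, 7.29 and 8.05 on tibial arrays, with its lowest levels on tibial 1 and 2 as for CHAD. Its sites overlapped, and its difference of 1.20 (SE 0.43) was the largest on the higher side in the 7 cartilage lists. Sites that did not overlap, with mandibular higher, were found for 3.35% of all probe sets. Of the 22 genes this was the case only for BMP4, a bone morphogenetic protein that promotes cartilage formation. It measured 8.45, 8.08 and 8.28 on mandibular arrays, against 7.40, 7.23 and 7.85 on tibial arrays, a difference of 0.78 (SE 0.19). The median of the list was -0.04 without mandibular 2, 0.13 without mandibular 1 and -0.01 without mandibular 2 and tibial 3 together. In this last fit, where 0.708% of all probe sets were called, NOG alone of the list was called, at 1.92 (SE 0.24, adjusted p = 0.043 in limma). BMP4 was not, at 1.05 (SE 0.18, adjusted p = 0.0949 in limma). Genes that build and sulfate glycosaminoglycan chains were higher in 6 of 14 and lower in 8, with a median of -0.05 and 0 called. PAPSS2, which makes the sulfate donor, differed by 0.03 (SE 0.23), the chondroitin synthase gene CHSY1 by 0.39 (SE 0.21), CSGALNACT2, which starts chondroitin chains, by -0.22 (SE 0.13) and the sulfate transporter gene SLC26A2 by -0.07 (SE 0.14). Leaving out tibial 1 gave this list a median of 0.03, and leaving out mandibular 2 gave -0.11. Without mandibular 2 and tibial 3 together it was -0.13, with 0 called. Genes of cartilage breakdown and its inhibitors were higher in 6 of 11 and lower in 5, with a median of 0.02 and 0 called. TIMP2, TIMP1 and the serine protease gene HTRA1 differed by 0.06 (SE 0.15), -0.01 (SE 0.32) and -0.07 (SE 0.12). The median was -0.08 without tibial 2 and 0.09 without mandibular 2 and tibial 3 together. In this last fit, with its 0.708% of all probe sets called, MMP9 was called lower. TIMP3, an inhibitor of metalloproteinases, was called higher, at 1.48 (SE 0.18, adjusted p = 0.0379 in limma). MMP9 is here the same probe set as in the osteoclast list. No probe set carried PRG4, the lubricin gene, or the proliferation marker MKI67 as its single symbol, and these are not analysed here.

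**Figure D3:**
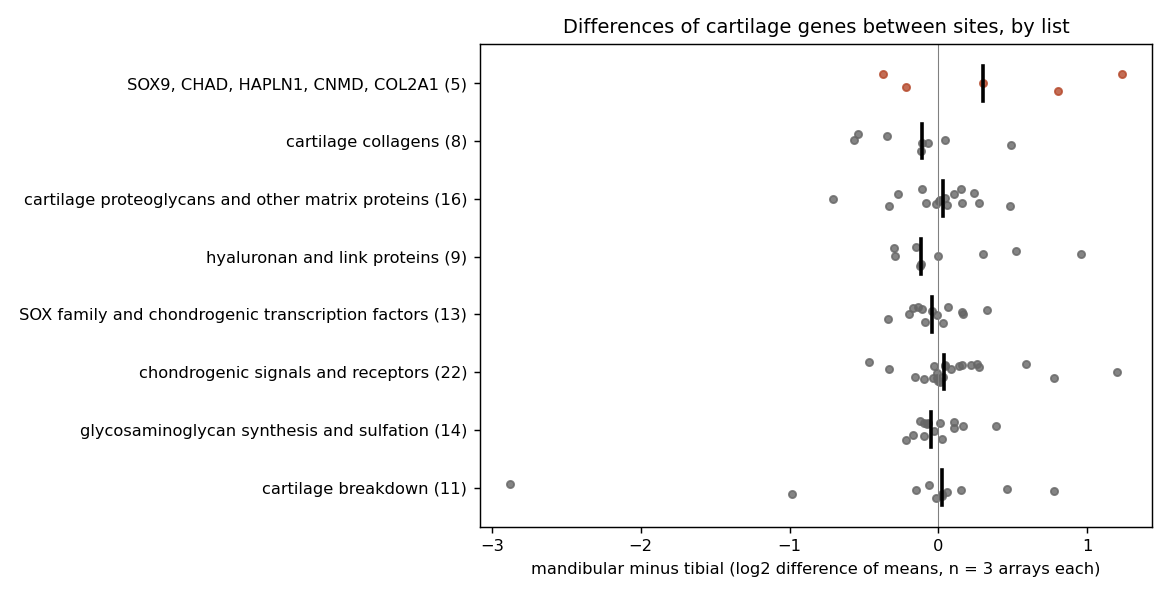
Mandibular minus tibial difference (log2) of each measured gene, in rows by list with the number of genes, the 5 members at the top and the median of each row as a black bar. The medians of the other 7 rows lie between -0.11 and 0.04, CHAD at 1.23 lies furthest to the right, and MMP9 at -2.88 furthest to the left.

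In the RefSeq order of genes of the Sscrofa11.1 assembly, CHAD lies within the span of ACSF2, a gene for an acyl-CoA synthetase, so their signals may not be fully separate. ACSF2 measured 8.27, 7.76 and 8.24 on mandibular arrays, against 7.48, 7.66 and 7.87 on tibial arrays, a difference of 0.42 (SE 0.18). Its Pearson's r with CHAD was 0.80. Its mandibular 2 level lay below tibial 3, whereas for CHAD mandibular 2 lay among the highest arrays, and its range was narrower than that of CHAD. The neighbour LRRC59 differed by 0.15 (SE 0.23), with an r of 0.68 with CHAD. On the other side RSAD1 differed by 0.35 (SE 0.13), with an r of 0.77. Next to HAPLN1 lies VCAN, whose values are given above. CNMD overlaps the end of SUGT1, a kinetochore assembly gene, which had its lowest level on tibial 1, where CNMD was highest. SENP1, next to COL2A1, differed by -0.04 (SE 0.22), and KCNJ2, the nearest protein-coding gene after SOX9, by -0.61 (SE 0.39). KCNJ2 was highest on tibial 2, at 8.12, as SOX9 was, and next highest on tibial 1, at 7.39, where SOX9 was lowest. Each of these genes had an adjusted p of 0.9995 in limma.

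Of the 11077 other named genes, those with the profile most like each member were listed by Pearson's r over the 6 arrays, as a description. With 6 arrays, high values arise among so many genes, and 10 to 74 genes reached 0.95 with a given member. The genes closest to SOX9 were ELOVL7, KREMEN1 and WIPI1, at 0.997, 0.988 and 0.976. KREMEN1, a receptor for DKK inhibitors of WNT signalling, measured 7.79, 7.87 and 7.47 on mandibular arrays, against 7.33, 7.83 and 7.46 on tibial arrays. The genes closest to CHAD were SMAD6, KLKB1 and NOX4, at 0.993, 0.988 and 0.988. SMAD6, an inhibitor inside the BMP pathway, measured 9.55, 9.62 and 9.47 on mandibular arrays, against 8.47, 8.91 and 9.41 on tibial arrays, and so had its lowest levels on tibial 1 and 2 as CHAD did. NOX4, an oxidase that makes hydrogen peroxide, measured 7.11, 7.19 and 7.02 on mandibular arrays, against 6.04, 6.55 and 7.04 on tibial arrays.

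The genes closest to HAPLN1 were HSPB8, DNAJA2 and S100A3, at 0.985, 0.985 and 0.984. HSPB8, a small heat shock protein gene, spanned 2.49 over the arrays and DNAJA2 only 0.19, so a shared profile did not mean a like size. The genes closest to CNMD were SELENBP1, GRK3 and CD79A, at 0.999, 0.994 and 0.990, with ranges of 0.50, 0.68 and 0.39. The genes closest to COL2A1 were ARHGAP30, TREM2 and RILPL2, at 0.995, 0.992 and 0.992. TREM2, a receptor of macrophages and osteoclasts, measured 5.49, 5.35 and 5.20 on mandibular arrays, against 7.57, 6.36 and 5.62 on tibial arrays. ARHGAP30, a gene of blood cells, measured 4.30, 4.25 and 3.96 on mandibular arrays, against 6.83, 5.19 and 4.61 on tibial arrays. The profile of COL2A1, which ranged by 0.45, thus had the same order of arrays as these 2 genes, which ranged by 2.38 and 2.87.

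**Figure D4:**
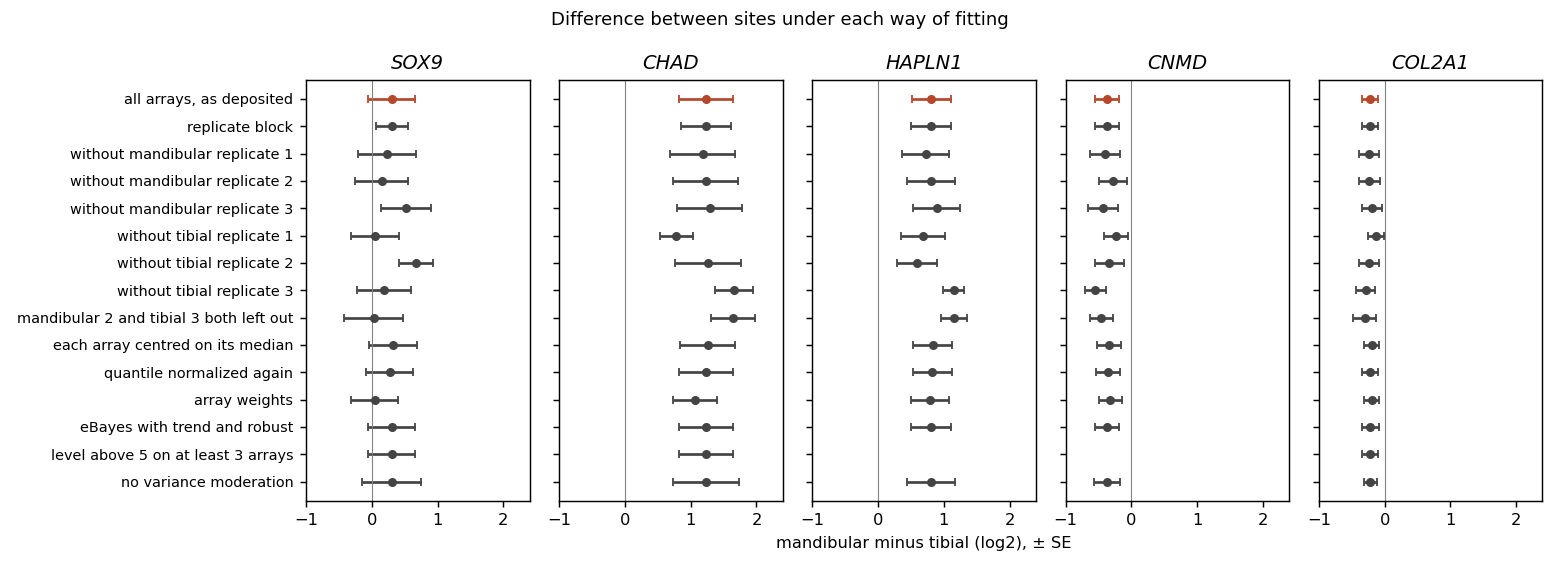
Mandibular minus tibial difference (log2) ± SE of each gene with all arrays (top row) and under each other way of fitting; the filter on low levels left out HAPLN1 and CNMD. Without a single array the differences ran from 0.78 to 1.65 for CHAD, from 0.59 to 1.15 for HAPLN1 and from 0.05 to 0.68 for SOX9, and from -0.55 to -0.23 for CNMD and from -0.29 to -0.13 for COL2A1.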

How the data were processed

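The deposited values are log2 levels of 27558 probe sets on 6 arrays. For how the authors made them, the submitters' processing notes name RMA, Expression Console and Transcriptome Analysis Console 3.0, with no settings. The genome build is not stated in the labels, so no coordinates are printed. GEO's platform annotation held a single symbol for 13157 probe sets, while 523 had several and 13878 had none. Without placeholder LOC symbols, 11911 probe sets named 11078 genes, each represented by its brightest probe set on average, and 7 symbols were updated by Entrez number.

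Differences (mandibular minus tibial) were tested by limma (version 3.58.1, under R 4.3.3), two-sided, unpaired, with Benjamini-Hochberg adjusted p-values across the array and 0.05 as the threshold. The fit was tested on simulated data. Single genes also had an exact permutation test (scipy 1.17.1). The labels call the 3 samples of a site biological replicates.

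The members and all 17 gene lists were chosen with earlier results of these data known. CHAD, HAPLN1, CNMD and COL2A1 had been picked from a longer cartilage list by their small p-values. Genes named in the text were the 5 members, the 4 genes of highest mean level in each of 7 cartilage lists, the 2 of highest mean level in each other list, 13 fixed genes, and the 3 genes most like each member. Positional genes, neighbours in RefSeq order, HAPLN3, NOG, BMP4 and VCAM1 were added after values were seen. So were genes without overlap between sites, genes called without mandibular 2 and tibial 3, and some values by array. Lists were described by counts and medians only. A promoter motif search was planned but no sequences were used here.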

Additional observations from a re-analysis of the deposited data

How the results depend on the processing

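The 5 genes had 68 differences under other settings, of which 18 (the replicate block, variance settings and the filter) leave the estimate as it is by construction. The other 50 kept their direction, and all 68 stayed uncalled in limma, with adjusted p between 0.1009 (HAPLN1 without mandibular 2 and tibial 3) and 1. For CHAD and COL2A1, whose sites did not overlap, leaving out or weighting arrays could not reverse the direction. The matrix genes had also been picked by their small p-values, so a kept direction is no independent evidence of a difference. HAPLN1 and CNMD had no value under the filter that kept levels above 5 on at least 3 arrays. Leaving out single arrays gave 0 to 2 called probe sets, 1 without tibial 1 and 2 without tibial 3. Leaving out mandibular 2 and tibial 3 together gave 195 called probe sets, 0.708% of all and none of them a member. The number of probe sets with an unadjusted p below 0.05 was 836 with all arrays, 2617 without both arrays, 2070 without tibial 3, 538 without mandibular 3 and 416 under the filter, which tested fewer probe sets. The cause of these unlike counts was not tested. With the replicate number as a block limma made 0 calls, 1511 probe sets had an unadjusted p below 0.05, while the estimates are by construction the same. The labels do not tie a number to a pig, so the numbers were not taken as pairs. Same-numbered samples had correlations of their deviations from the site means of -0.03, 0.21 and 0.47. Only 1 of 3 mandibular samples correlated best with its own number. Mandibular 2 and tibial 3, whose positional genes went against the label, enter these deviations. The correlations therefore cannot decide whether equal numbers share a pig. Of 221 list medians under alternatives, 212 moved by no more than the spread between arrays and 9 by more. That spread was the larger of the SDs of the list mean over the arrays of each site. The replicate block and a change of variance setting leave each median as it is by construction, and these cases are among the 212. Each gene of the 5 had a single probe set, so no other probe set could be tried. The 3 arrays per site limit what can be detected, and CNMD and HAPLN1 are limited by their low signal.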
